A study of Mus musculus with 9 samples.

Results

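A set of 10 genes of the cadherin switch and of epithelial-mesenchymal regulation were followed across 4 groups of mouse lines labelled as epiblast stem cells. They are the cadherins Cdh1 and Cdh2, the epithelial surface protein Epcam, the transcription factors Zeb1, Zeb2, Snai1, Snai2 and Twist1, and the splicing regulators Esrp1 and Esrp2. They were taken by mouse symbol, and the estimated reads and TPM of all their transcripts were summed per gene. These 10 genes are 10 of 52609 genes in the summed table and 10 of 18096 that passed the filter on low counts, so every one of them was tested. Poly(A) RNA of 9 libraries was sequenced with a strand-marking kit. Epiblast stem cells are pluripotent cells taken from the postimplantation epiblast, here grown on a layer of inactivated mouse embryonic fibroblasts. All groups received FGF2 at 10 ng/mL and Activin A at 20 ng/mL in a serum replacement medium. The control line (n = 2) carried no stated modification and had no inhibitor. Dkk1_KO (n = 3) was a line with a knockout of Dkk1, which encodes a secreted inhibitor of Wnt receptors, also without inhibitor. IWP2 (n = 2) was grown with 5 µM IWP2, which blocks Porcupine and thereby the secretion of Wnt proteins. IWP2_removed (n = 2) came from cells whose IWP2 was taken away once the line had been derived. Each group is described as 1 line, so line and treatment or genotype cannot be told apart, and the labels do not say whether replicates came from separate cultures. If they did not, p-values measure a spread that may be technical.

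E-cadherin, the product of Cdh1, joins epithelial cells through beta-catenin and alpha-catenin, whereas N-cadherin, the product of Cdh2, takes its place in many mesenchymal and neural cells. ZEB, SNAIL and TWIST factors repress the epithelial programme, the first and the second of these families through E-box elements in promoters such as that of Cdh1. ESRP proteins act downstream of it and favour the epithelial splice forms of several transcripts. In the embryo the exchange of cadherins accompanies the passage of epiblast cells through the primitive streak, and trophoblast is an epithelium rich in E-cadherin.

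Depth ran from 10849490 to 17892751 estimated reads per library. The 3 Dkk1_KO libraries resembled one another more than replicates of other groups did, with a chi-square per degree of freedom of 1.74 to 2.16 over genes against 29.3 in control, 34.5 in IWP2_removed and 83.1 in IWP2. The targeted gene was low in the knockout, with Dkk1 at 6.77 and 8.95 CPM in control, 0.701, 0.835 and 1.13 in Dkk1_KO, 2.89 and 0.348 in IWP2 and 3.45 and 5.84 in IWP2_removed. CPM are counts scaled to a common library total with TMM factors. The labelled cell type was matched by its markers in 3 groups and not by most of them in Dkk1_KO. There 7 of 12 epiblast markers were lower than in control and 3 were higher. The pluripotency factor Pou5f1 stood at 1.39 ± 0.284 CPM in Dkk1_KO (SD, n = 3) against 457 ± 21.3 in control (SD, n = 2). All 12 of 12 trophoblast markers were higher, 3 of them without a read in control.

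In Dkk1_KO the cadherins changed places. Cdh1 was at 34.9 and 24.6 CPM in the control libraries and at 1210, 1180 and 1210 CPM in the Dkk1_KO libraries. Cdh2 was at 173 and 123 CPM in control and at 10.1, 10.5 and 9.48 CPM in Dkk1_KO. Neither gene's libraries overlapped between the groups, Cdh1 being high and Cdh2 low in all 3 knockout libraries. In bulk RNA fewer cells of a type and less RNA per cell cannot be told apart. Of the 10 genes 5 were higher in Dkk1_KO (Cdh1, Epcam, Snai1, Esrp1 and Esrp2), 3 were lower (Cdh2, Zeb1 and Zeb2), and Snai2 and Twist1 were not called. A gene was called where its adjusted p over all tested genes was below 0.05 in edgeR's quasi-likelihood test. Calls were common in this comparison, at 44.3% of all tested genes in either direction, 21.3% higher and 23.0% lower. The groups did not overlap for 10 of 10 of these genes, and for 73.4% of all tested genes. Their median log2 fold change was 0.81, beside -0.03 over all genes. The set pools epithelial genes with Cdh2 and with repressors of the epithelial state, so this median has no single direction of meaning.

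**Figure D1:**
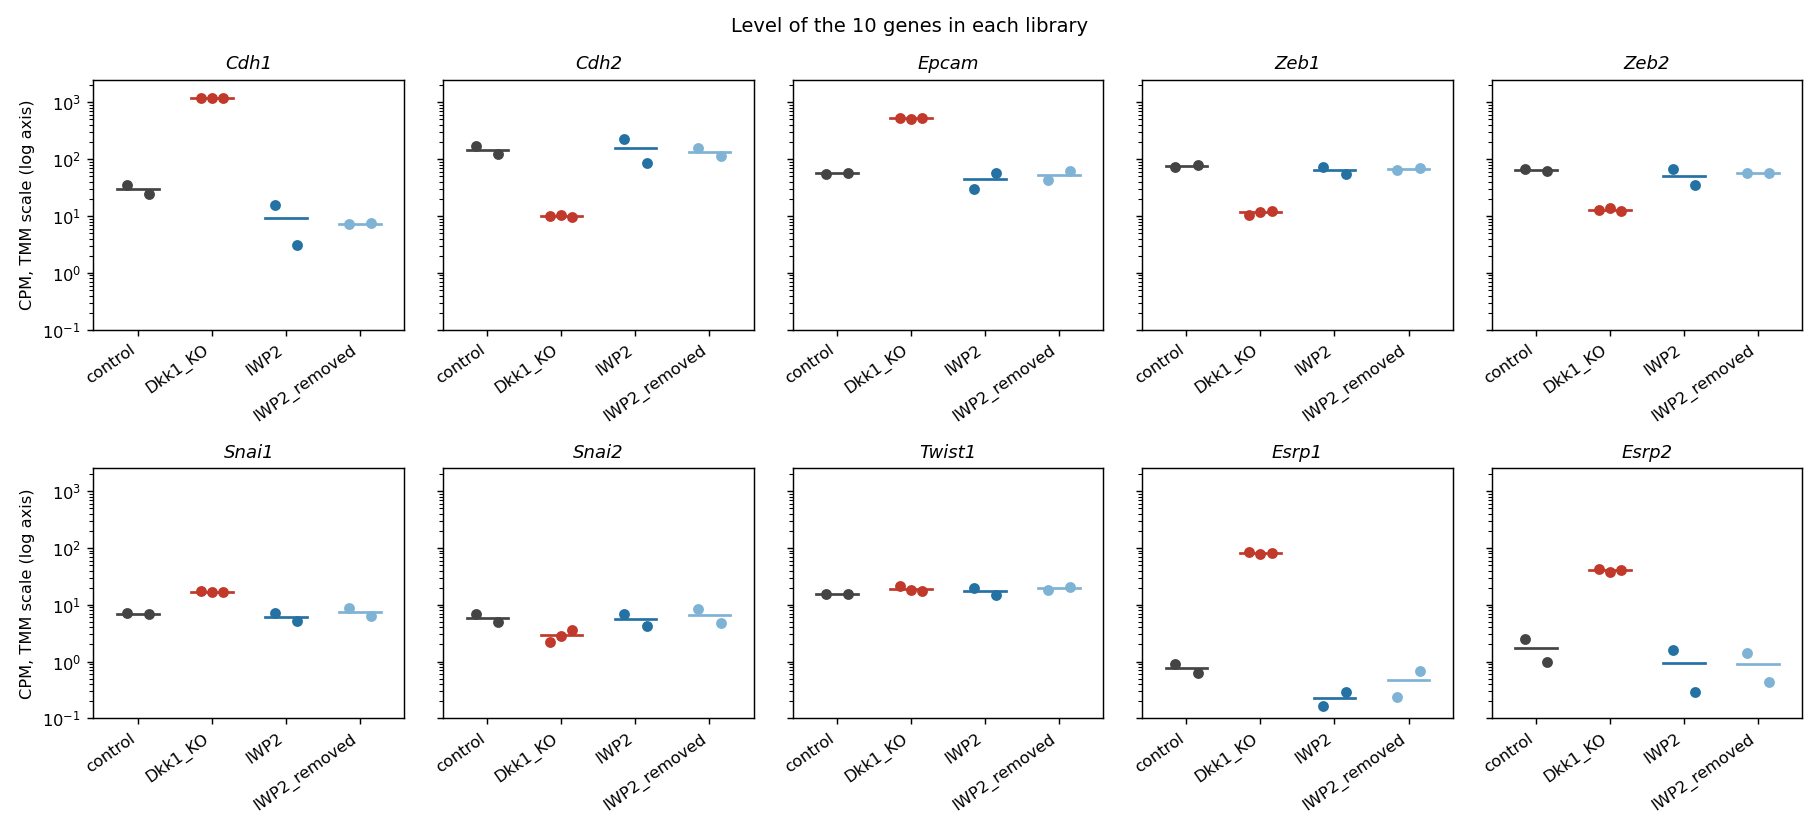
Level of each of the 10 genes (CPM on the TMM scale, log axis shared by all panels) in the 9 libraries. Points are libraries and bars are group means. The 3 Dkk1_KO libraries lie above every other library for Cdh1, Epcam, Snai1, Esrp1 and Esrp2 and below every other library for Cdh2, Zeb1, Zeb2 and Snai2.

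Cdh1 (ENSMUSG00000000303.12) lies on chromosome 8, 106603351 to 106670246, plus strand of GRCm38. It was 40.3-fold higher in Dkk1_KO by group means, with a log2 fold change of 5.34 ± 0.60 (SE, edgeR adjusted p = 0.000198). Cdh2 (ENSMUSG00000024304.14) lies on chromosome 18, 16588877 to 16809246, minus strand. It was 14.8-fold lower, with a log2 fold change of -3.89 ± 0.38 (edgeR adjusted p = 8.52e-05). Both genes were read in every library, and the Cdh1 level of control rested on 787 reads in the 2 libraries together.

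Levels of the cadherins were compared with each other as TPM, which takes transcript length into account. In control Cdh2 exceeded Cdh1 by 5.63-fold and 5.57-fold in the individual libraries, at 35.7 and 21.3 TPM of Cdh2 against 6.34 and 3.82 TPM of Cdh1. In Dkk1_KO the order was the reverse, with Cdh1 exceeding Cdh2 by 108-fold, 109-fold and 116-fold. In IWP2 Cdh2 exceeded Cdh1 by 15.8-fold and 31.5-fold, and in IWP2_removed by 25.2-fold and 17.0-fold. The log2 ratio of Cdh1 to Cdh2 averaged -2.49 ± 0.01 in control (SD, n = 2), 6.79 ± 0.06 in Dkk1_KO (SD, n = 3), -4.48 ± 0.70 in IWP2 (SD, n = 2) and -4.37 ± 0.40 in IWP2_removed (SD, n = 2). Dkk1_KO was therefore the 1 group of 4 with more Cdh1 than Cdh2. The ratio differed from control by 9.28 in Dkk1_KO, -1.99 in IWP2 and -1.89 in IWP2_removed on the log2 scale, and in each case the libraries did not overlap with those of control. Two-sided exact permutation tests gave p = 0.2 for Dkk1_KO and p = 0.333 for each of the others, which are the smallest values that 3 against 2 and 2 against 2 libraries allow. IWP2_removed differed from IWP2 by 0.11 (exact permutation p = 1), and their libraries overlapped.

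**Figure D2:**
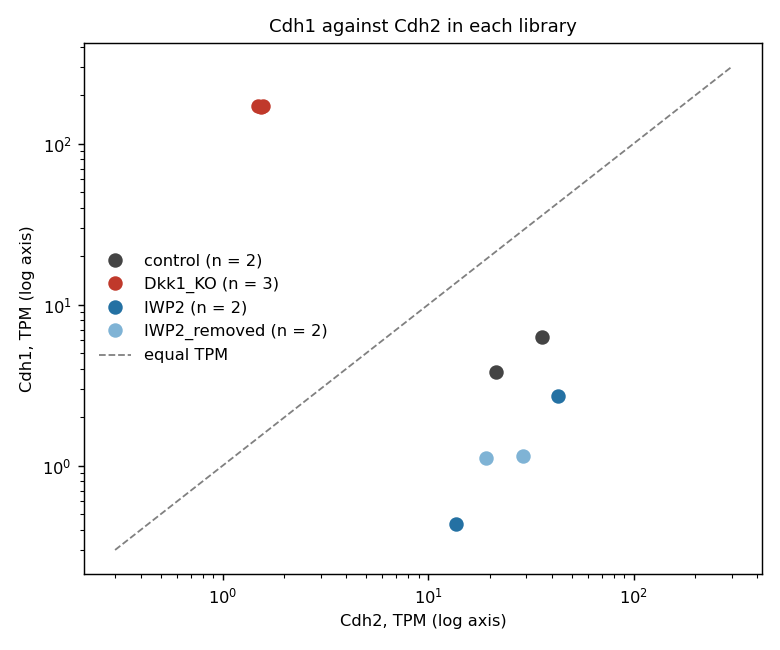
Cdh1 against Cdh2 in each library (TPM, both axes logarithmic), with a dashed line where both are equal. The 3 Dkk1_KO libraries, at 168 to 172 TPM of Cdh1 and 1.49 to 1.58 TPM of Cdh2, lie above the line, and the other 6 libraries lie below it.

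Epcam (ENSMUSG00000045394.9), a cell adhesion protein of epithelia and of pluripotent cells, lies on chromosome 17, 87635979 to 87651129, plus strand. It was at 55.7 and 57.9 CPM in control, 524, 515 and 525 in Dkk1_KO, 30.5 and 58.1 in IWP2 and 42.9 and 63.0 in IWP2_removed. Dkk1_KO stood above all other libraries, which overlapped among themselves. The gene rose 9.18-fold in Dkk1_KO (log2 fold change 3.20 ± 0.29, SE, edgeR adjusted p = 6.22e-05). Its promoter is shown because Epcam rose in the libraries in which Zeb1 and Zeb2, whose products bind E-boxes, fell and Snai1, another such factor, rose. The 250 bases before the RefSeq start site (GRCm38.p6, chr17:87635729-87635978, plus strand) held the E-box CAGGTG, searched on both strands, in 2 places, 187 and 19 bases upstream. They are in capitals in the sequence, the first as its reverse complement.
Epcam promoter: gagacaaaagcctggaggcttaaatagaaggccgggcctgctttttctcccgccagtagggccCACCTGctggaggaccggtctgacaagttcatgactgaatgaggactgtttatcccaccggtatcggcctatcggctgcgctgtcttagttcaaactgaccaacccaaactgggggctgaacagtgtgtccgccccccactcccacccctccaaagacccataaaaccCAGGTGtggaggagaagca
Of 32817 promoter windows of the same length, 17.2% held this motif at least once and 2.07% held it 2 or more times. The table of promoters had windows for 4 of the 10 genes, 7 windows in all. Snai1 had 1 match, 126 bases upstream, and the windows of Zeb2 (4 starts) and Twist1 had 0 matches. A match describes the letters only, and binding was not measured.

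Both ZEB genes, whose products repress Cdh1, fell in Dkk1_KO. Zeb1 (chromosome 18, 5591860 to 5775467, plus strand) was at 71.5 and 79.4 CPM in control and at 10.6, 12.0 and 12.2 in Dkk1_KO. Zeb2 (chromosome 2, 44983632 to 45117395, minus strand) was at 66.3 and 62.9 CPM in control and at 12.7, 13.7 and 12.4 in Dkk1_KO. Every knockout library was low for both, and a residual of 15.4% of the control level remained for Zeb1 and 20.0% for Zeb2. The log2 fold changes were -2.70 ± 0.16 for Zeb1 (SE, edgeR adjusted p = 7.34e-06) and -2.32 ± 0.23 for Zeb2 (edgeR adjusted p = 0.000103). TPM of both genes was unstable because very short transcripts weigh heavily in it. In control replicate 1 a Zeb1 transcript of 266 bases with 2.0 estimated reads made up 20.1 of 32.0 TPM, and a Zeb2 transcript of 240 bases with 5.63 estimated reads made up 21.9 of 33.0 TPM. Leaving out transcripts under 500 bases, a setting chosen once the data had been seen, gave Zeb1 11.5 ± 0.614 TPM in control (SD, n = 2) and 1.59 ± 0.238 in Dkk1_KO (SD, n = 3). Zeb2 was then at 9.08 ± 0.605 and 1.90 ± 0.403 TPM.

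Of the SNAIL and TWIST genes Snai1 rose in Dkk1_KO, and Snai2 and Twist1 were not called. Snai1 (chromosome 2, 167538195 to 167542814, plus strand), a repressor active when mesoderm leaves the epiblast, was at 7.03 and 6.78 CPM in control and at 17.7, 16.9 and 16.6 CPM in Dkk1_KO. It was higher in all 3 knockout libraries and rose 2.47-fold (log2 fold change 1.31 ± 0.23, SE, edgeR adjusted p = 0.00198). When the 3 Dkk1_KO libraries were averaged into 1 sample, a setting also chosen once the data had been seen, Snai1 lost its call (log2 fold change 1.33, edgeR adjusted p = 0.0691). Snai2 (chromosome 16, 14705852 to 14709385, plus strand), a repressor of neural crest and mesenchyme, was at 6.77 and 4.91 CPM in control and at 2.24, 2.81 and 3.61 CPM in Dkk1_KO. Its libraries did not overlap, but it missed the threshold (log2 fold change -1.01 ± 0.36, SE, edgeR adjusted p = 0.0509). DESeq2 called it lower (adjusted p = 0.0459), and so did edgeR with only these 2 groups in the model (adjusted p = 0.0182), with all genes kept whatever their counts (0.0407), without either library of IWP2 (0.0372 and 0.0356) or of IWP2_removed (0.0467 and 0.0416), and with the replicate number as a block (0.035). The other settings did not call it, and over all of them the adjusted p ran from 0.0182 to 0.31. Twist1 (chromosome 12, 33957671 to 33959829, plus strand), a mesodermal factor also expressed in fibroblasts, was at 15.7 and 15.2 CPM in control and at 21.4, 18.2 and 17.7 CPM in Dkk1_KO. Its log2 fold change was 0.31 ± 0.18 (SE, edgeR adjusted p = 0.191), so no change of Twist1 was called although the libraries did not overlap.

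The epithelial splicing regulators went from traces to clear expression. Esrp1 (chromosome 4, 11331933 to 11386783, minus strand) was at 0.890 and 0.622 CPM in control and at 83.7, 78.7 and 81.9 CPM in Dkk1_KO. Esrp2 (chromosome 8, 106130319 to 106136974, minus strand) was at 2.49 and 0.995 CPM in control and at 42.3, 37.3 and 41.0 CPM in Dkk1_KO. The control levels rested on 20 reads of Esrp1 and 44 of Esrp2 over 2 libraries, against 3389 and 1674 over the 3 knockout libraries. Esrp1 rose 108-fold (log2 fold change 6.77 ± 0.32, SE, edgeR adjusted p = 2.78e-06) and Esrp2 rose 23.1-fold (4.57 ± 0.65, edgeR adjusted p = 0.000657). With a transcript length offset in the model Esrp2 lost its call (log2 fold change 3.50, edgeR adjusted p = 0.0566).

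Transcripts that ESRP proteins are known to act on were read for their splice forms. Fgfr2, a receptor for FGF ligands, carries either of a pair of alternative exons, IIIb in epithelia or IIIc in mesenchyme, which set the ligands it binds. Enah, a regulator of actin, has a small exon that epithelia include. The IIIb exon and the small Enah exon are shown because the share of the forms that carry them is what differed. Both are in lower case throughout, since no part of them is singled out. The sequences are those of GENCODE vM21 transcripts on GRCm38, both on the minus strand, at chr7:130199758-130199905 for IIIb (148 bases) and chr1:181911597-181911659 for Enah (63 bases). Both are internal exons.
Fgfr2 IIIb exon: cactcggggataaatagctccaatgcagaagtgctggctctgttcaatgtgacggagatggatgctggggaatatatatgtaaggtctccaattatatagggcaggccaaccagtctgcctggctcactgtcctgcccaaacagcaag
Enah small exon: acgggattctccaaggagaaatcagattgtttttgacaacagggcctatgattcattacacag

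Shares were taken among the annotated forms compared, not over all TPM of a gene. For Fgfr2 these were transcripts with either exon IIIb or exon IIIc. The IIIb form made up 7.07% and 9.27% of their TPM in control and 67.7%, 73.9% and 68.5% in Dkk1_KO. In control this form had only 9 and 24 estimated reads. For Enah they were transcripts with the small exon, or with both of its neighbouring exons and not it. The small exon was in 5.83% and 4.00% of their TPM in control and in 45.7%, 48.8% and 41.2% in Dkk1_KO. Both shares were high in all 3 knockout libraries, with no overlap. Ctnnd1 encodes p120-catenin, which binds cadherins at the membrane, and the short forms that start at a later codon are the epithelial ones. Their share beside the forms with the long start was 10.8% and 12.1% in control and 41.2%, 34.2% and 37.6% in Dkk1_KO, again without overlap. Cd44 forms with any coding exon beyond those shared by all its transcripts held 50.0% and 48.7% in control and 57.5%, 54.4% and 51.8% in Dkk1_KO. This group of 7 transcripts, set against 1 other, is broader than the variable exons that ESRP proteins favour. The share of estimated reads of these Cd44 forms overlapped between control and Dkk1_KO (63.0% ± 2.75 in control and 64.3% ± 4.24 in Dkk1_KO, SD), so no shift of them was seen on both scales. The variable exons themselves were not read apart. Fgfr2 as a whole also rose in Dkk1_KO (29.1 to 293 CPM, log2 fold change 3.33 ± 0.12, edgeR adjusted p = 1.19e-06), and its IIIc form went from a mean of 4.24 to 9.23 TPM while the IIIb form went from 0.382 to 21.7 TPM. Enah as a whole was not called (log2 fold change -0.17 ± 0.13, edgeR adjusted p = 0.31). Ctnnd1 as a whole was higher (211 to 328 CPM, log2 fold change 0.63 ± 0.17, edgeR adjusted p = 0.0158).

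In the inhibitor groups the IIIb share of Fgfr2 was 6.73% and 23.3% in IWP2 and 16.4% and 28.8% in IWP2_removed, on 10 to 47 reads per library. The short Ctnnd1 forms were at 13.0% and 21.0% in IWP2 and at 20.8% and 23.9% in IWP2_removed, above both control libraries. Enah kept a low share of its small exon, 4.28% and 2.03% in IWP2 and 3.12% and 3.94% in IWP2_removed. These shares therefore did not move together in the inhibitor groups, where Esrp1 was at most 0.691 CPM and Esrp2 at most 1.61 CPM. Shares were given no test, since reads common to several forms are apportioned by the authors' quantification and are not independent counts.

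**Figure D3:**
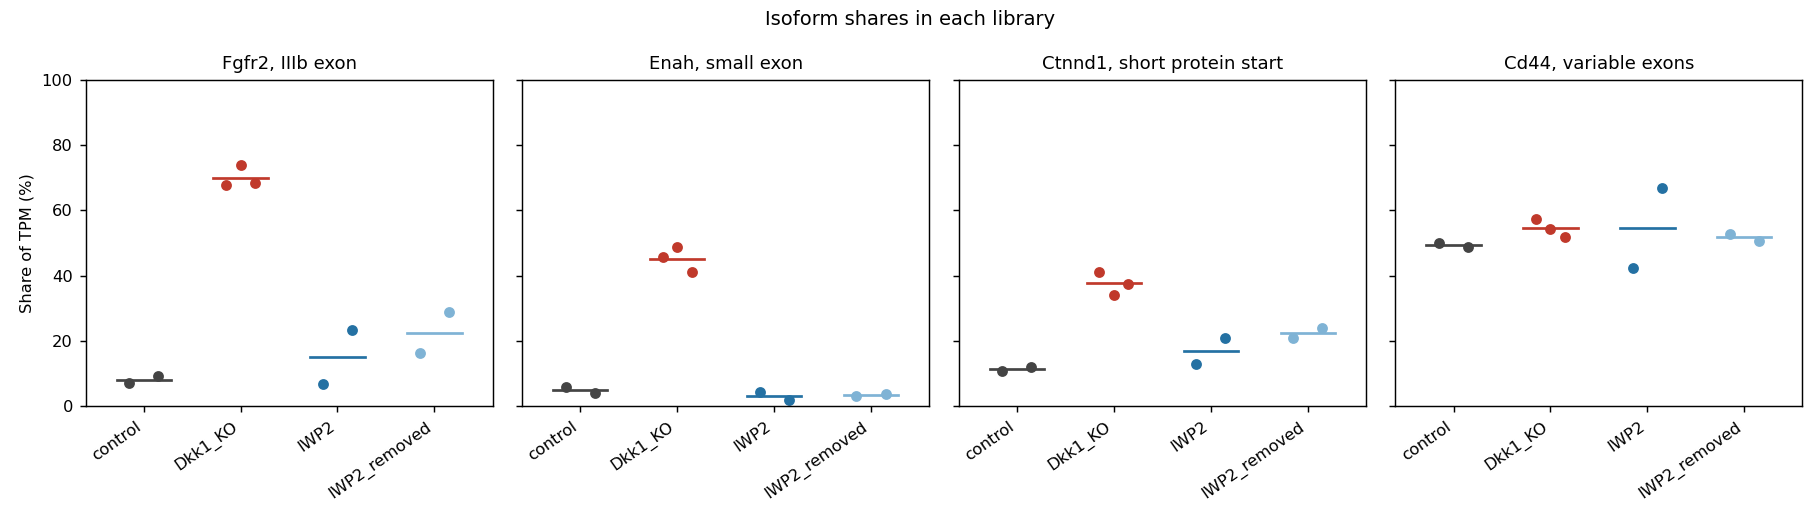
Share of TPM (%) within the forms compared of 4 genes in each library, with bars at group means. Shown are the epithelial forms of Fgfr2, Enah and Ctnnd1, and Cd44 forms with any coding exon beyond those shared by all its transcripts. For Fgfr2, Enah and Ctnnd1 the 3 Dkk1_KO libraries lie above the other 6, and for Cd44 the groups lie between 42.4% and 67.0% with IWP2 at both ends.

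Other genes of epithelial junctions rose with Cdh1 and Epcam in Dkk1_KO. Of 30 junction and polarity genes 29 were higher and 0 were lower, with a median log2 fold change of 3.51 against -0.03 over all genes. At an unadjusted p under 0.05, 30 of 30 differed, against 51.9% of all tested genes. Examples were the plakophilin Pkp3 of desmosomes (0.289 to 43.1 CPM, log2 fold change 7.16 ± 0.23), the keratin Krt7 (2.48 to 190 CPM, 6.24 ± 0.24), the sorting adaptor Ap1m2 of polarised epithelia (0.227 to 128 CPM, 9.13 ± 0.45) and the tight-junction protein F11r (35.4 to 261 CPM, 2.88 ± 0.15). Pkp3 and Ap1m2 were near the floor in control and could hardly have been called lower, so the count of the list is partly one-sided for that reason. Krt7 is also on the trophoblast list, and without it 28 of 29 were higher. The 1 junction gene not called was Tjp1 (0.46 ± 0.18, edgeR adjusted p = 0.0623), named after its value was seen.

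Mesenchymal genes moved less uniformly than Cdh2, Zeb1 and Zeb2. Of 24 genes 11 were lower and 2 were higher, with a median log2 fold change of -0.71. Lower genes included the collagens Col3a1 (695 to 176 CPM, log2 fold change -1.98 ± 0.20) and Col1a2 (1070 to 533 CPM, -1.01 ± 0.14), the matrix protease Mmp2 (214 to 81.0 CPM, -1.40 ± 0.18) and the transcription factor Foxc1 (12.5 to 1.27 CPM, -3.30 ± 0.44). One of the higher genes, named after its value was seen, was Itga5, a fibronectin receptor subunit (0.83 ± 0.15). Feeder fibroblast markers were lower beside these genes. Their 22 genes summed to 4830 to 5530 CPM in control and 2920 to 3010 in Dkk1_KO, which is 57.5% of control, with 14 lower, 0 higher and none without a read. The mesenchymal list shares 7 of its genes with the feeder list, and among the other 17 there were 7 lower and 2 higher. Single feeder markers ran from a log2 fold change of -3.89 ± 0.20 for Dcn and -3.31 ± 0.23 for Lum to -0.02 ± 0.65 for Fbln2. These were named after their values were seen, and the feeder sum does not describe each marker. Over the same libraries Cdh2 stood at 6.75% of control, Zeb1 at 15.4%, Zeb2 at 20.0%, Snai2 at 49.4% and Twist1 at 124%. The share of each gene's reads that came from feeder cells was not tested.

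Markers of other cell types differed in Dkk1_KO as well, in directions that depended on the list. Trophoblast markers summed to 52.5 to 107 CPM in control and 2390 to 2400 in Dkk1_KO, and 12 of 12 were higher, with Esx1, Rhox6 and Rhox9 without a read in control. Hand1 was at 0.089 ± 0.126 CPM in control (SD, n = 2). Such genes pass the filter on low counts through Dkk1_KO and could not have been called lower, so the count is partly fixed by the filter. Epiblast markers stood at 64.4% of control, with 7 of 12 lower and 3 higher. Much of that sum was Dnmt3b, at 460 of 825 to 869 CPM in Dkk1_KO and at 139 CPM in control. Pou5f1 went from 457 CPM in control to 1.39 in Dkk1_KO, so the sum does not describe the single markers. Neural ectoderm markers stood at 19.8% (6 of 11 lower, 0 higher), primitive streak and mesoderm markers at 22.7% (5 of 10 tested lower, 1 higher, Mesp1 and Msgn1 without a read), and extraembryonic endoderm markers at 207% (2 of 8 tested higher, 3 lower). The last sum was carried by the collagen gene Col4a1, and the remaining markers of that list stood at 68.4% of control. The part of these cell types in the change of Cdh1, Cdh2, Epcam and the other members was not tested.

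**Figure D4:**
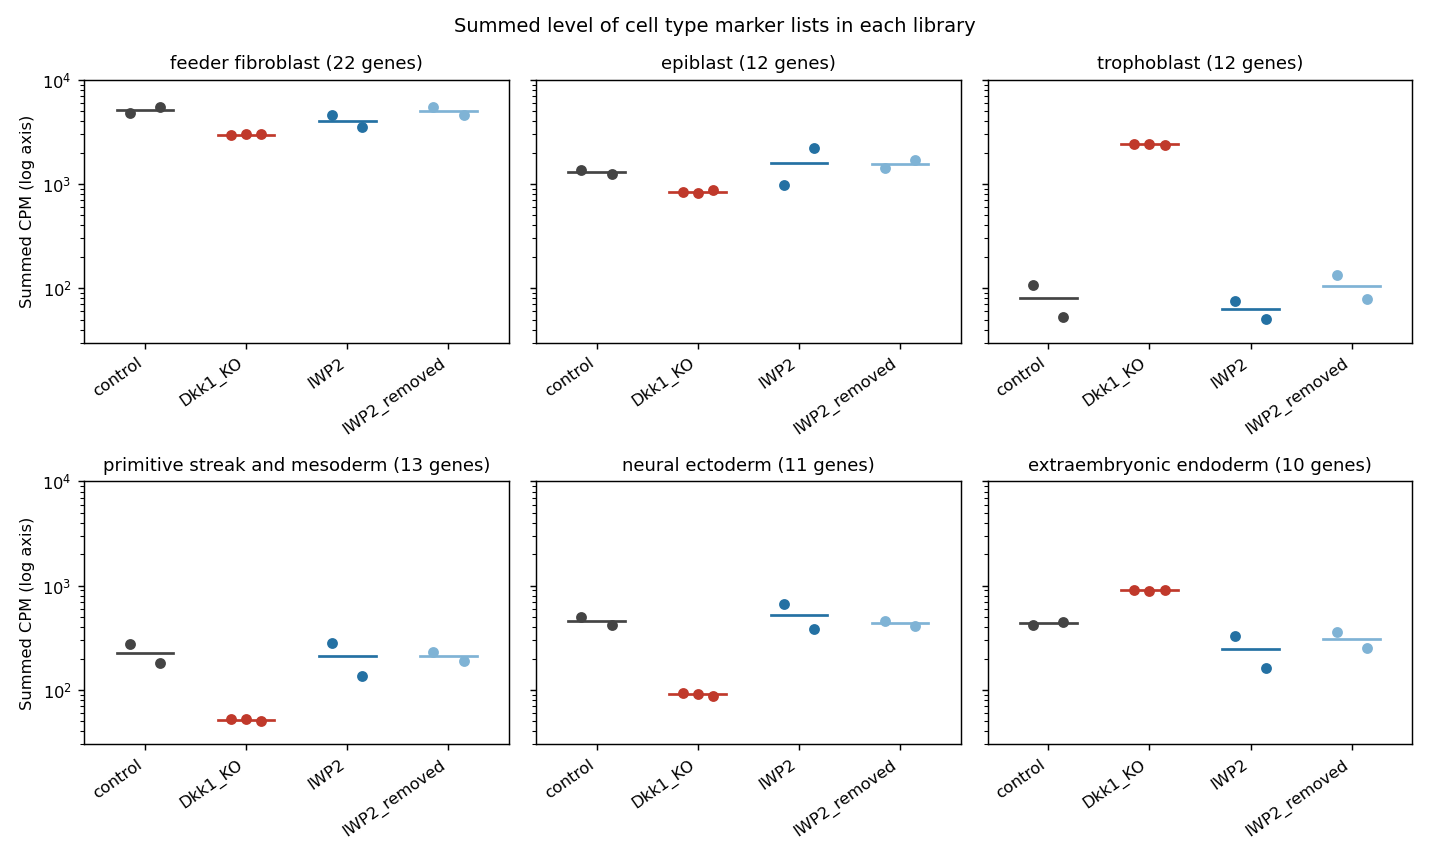
Summed CPM (log axis shared by all panels) of 6 marker lists in each library, with bars at group means. In the 3 Dkk1_KO libraries the trophoblast sum was 2390 to 2400 CPM against at most 134 in any other library, and the feeder fibroblast sum was 2920 to 3010 against 3510 or more.

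Regulators other than Zeb1, Zeb2, Snai1, Snai2 and Twist1 were mostly higher in Dkk1_KO. Their list pools repressors and activators and holds Snai3 and Twist2, so its counts and median have no single direction of meaning. Of 20 further repressors and activators of the epithelial state 19 were tested, 12 were higher and 3 were lower, with a median log2 fold change of 2.43. The higher genes by the smallest p were Grhl2, an activator of Cdh1 and of other junction genes (2.35 to 79.9 CPM, log2 fold change 5.12 ± 0.28), Klf5, a factor of epithelia and of trophoblast (11.8 to 88.7 CPM, 2.90 ± 0.21), and Tfap2c, a trophoblast factor (7.72 to 222 CPM, 4.83 ± 0.43). Tcf3, a bHLH factor whose product can repress Cdh1, was lower (211 to 62.3 CPM, -1.76 ± 0.16). The other 2 lower genes were Tcf4 (-1.63 ± 0.25) and Sox4 (-2.20 ± 0.23). Ovol2, a repressor of Zeb1 in epithelia, was higher (4.26 ± 0.44), and so was Snai3 (5.80 ± 0.69), a relative of Snai1. These 4 genes were named after their values were seen.

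Cdh2 was not alone among cadherins. Of 16 other cadherins 14 were tested, of which 7 were lower and 3 were higher, with a median log2 fold change of -2.02. Cdh4 (10.7 to 0.121 CPM, -6.37 ± 0.37), Cdh10 (8.44 to 0.408 CPM, -4.34 ± 0.27) and Cdh22 (11.5 to 0.627 CPM, -4.19 ± 0.50), cadherins of the nervous system, were lower, and the endothelial cadherin Cdh5 was higher (0.365 to 3.30 CPM, 3.14 ± 0.48). Of 13 tested partners of the cadherin complex 5 were higher and 5 were lower, with a median of 0.63. The higher ones were Jup (2.36 ± 0.26), Ctnna1 (1.27 ± 0.12), Afdn (1.26 ± 0.16), Nectin2 (0.81 ± 0.11) and Ctnnd1 (0.63 ± 0.17), named after their values were seen. The lower partners with the smallest p were Ctnna2, the neural alpha-catenin (9.16 to 0.719 CPM, -3.66 ± 0.26), Arvcf and Ctnnd2, relatives of p120-catenin (74.2 to 26.1 CPM, -1.51 ± 0.11, and 12.5 to 2.04 CPM, -2.60 ± 0.22), and the adhesion protein Nectin3 (71.7 to 20.8 CPM, -1.79 ± 0.15). Among 15 cofactors of SNAIL and ZEB repressors 2 were higher and 5 lower, with a median of 0.04. These calls are 46.7% of the list, near the 44.3% of all tested genes. Ctbp1, a corepressor bound by ZEB proteins, was lower (182 to 79.0 CPM, -1.20 ± 0.12), as were Hdac2 (226 to 124 CPM, -0.87 ± 0.16) and Smarca4 (343 to 237 CPM, -0.53 ± 0.12), while the Polycomb gene Suz12 was higher (158 to 271 CPM, 0.78 ± 0.12). Of 14 splicing regulators other than Esrp1 and Esrp2, 4 were higher and 6 lower (median -0.59). Rbm47, which is rich in epithelia, was higher (1.73 to 67.7 CPM, 5.32 ± 0.58), and the neuronal regulators Ptbp2 (96.2 to 12.3 CPM, -2.96 ± 0.13) and Nova1 (23.0 to 1.47 CPM, -3.96 ± 0.21) and the quaking gene Qk (287 to 121 CPM, -1.24 ± 0.15) were lower. These splicing regulators moved in the same libraries as the Fgfr2, Enah and Ctnnd1 shares, and the part of each in the shares was not tested.

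With IWP2 in the medium Cdh1 and Esrp1 lay below control, but neither passed the adjusted test. Cdh1 was at 15.5 and 3.14 CPM in IWP2 against 34.9 and 24.6 in control, and Esrp1 at 0.167 and 0.290 CPM against 0.890 and 0.622. Both groups stood apart for these 2 genes, and the IWP2 replicates of Cdh1 differed widely from each other. The log2 fold changes were -1.67 ± 0.55 for Cdh1 (SE, edgeR adjusted p = 0.172) and -1.66 ± 0.50 for Esrp1 (edgeR adjusted p = 0.138), the latter on 8 reads in IWP2 and 20 in control. Of the 10 genes 0 were called by edgeR, against 2.19% of all tested genes (1.27% higher and 0.917% lower). At an unadjusted p under 0.05 there were 2, Cdh1 and Esrp1, against 16.4% of all tested genes, and DESeq2 called 1, Cdh1 (adjusted p = 0.0269). The libraries of 2 of 10 genes did not overlap, against 34.9% of all tested genes. Without IWP2 replicate 1 the count of called genes was 2, with Cdh1 at -3.25 (edgeR adjusted p = 0.00165) and Zeb2 at -0.87 (0.00979), and with all genes kept whatever their counts Cdh1 was called as well (adjusted p = 3.5e-06).

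The other members overlapped with control. Cdh2 was at 225 and 87.2 CPM in IWP2, one above and one below both control libraries (log2 fold change 0.07 ± 0.38, edgeR adjusted p = 0.957). Zeb1 was at 74.3 and 54.1 CPM (-0.23 ± 0.17) and Zeb2 at 67.2 and 35.6 CPM (-0.33 ± 0.25). Of the 2 IWP2 libraries replicate 2 was the lower for Cdh1, Cdh2, Zeb1, Zeb2, Snai1, Snai2, Twist1 and Esrp2 and the higher for Epcam and Esrp1. Snai1 was at 7.12 and 5.17 CPM, Snai2 at 6.78 and 4.30, Twist1 at 19.7 and 14.9 and Esrp2 at 1.61 and 0.290, the last on 34 reads in all. The same libraries differed in the summed level of the feeder markers (3510 to 4570 CPM) and of the epiblast markers (979 to 2220 CPM), and the part of that difference in the values was not tested.

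Around the members a few genes were called with IWP2. These calls used a spread shared with the 3 Dkk1_KO libraries, which differed little among themselves. Over all genes the 396 calls became 12 in the 6 libraries without Dkk1_KO and 1 with only the 2 groups compared. Which of the genes below kept a call in those settings was not read. Among junction genes 0 were higher and 1, Krt7, was lower (2.48 to 0.791 CPM, log2 fold change -1.65 ± 0.29, edgeR adjusted p = 0.0292), while 13 of 30 had an unadjusted p under 0.05 (16.4% of all tested genes did) and the list's median was -0.45 against 0.01 over all genes. Among the other regulators 2 were lower, Grhl2 (2.35 to 0.508 CPM, -2.15 ± 0.37, adjusted p = 0.0265) and Klf5 (11.8 to 5.24 CPM, -1.18 ± 0.22, 0.0362), and 1 was higher, Ehf, an epithelial ETS factor (0.347 to 1.61 CPM, 2.24 ± 0.46, 0.0492). The nectin gene Nectin2 was lower (94.4 to 57.2 CPM, -0.72 ± 0.12, edgeR adjusted p = 0.0227). Among cofactors the Polycomb methyltransferase Ezh2 was higher (104 to 206 CPM, 0.99 ± 0.15, edgeR adjusted p = 0.02) and Ajuba, a LIM protein that binds SNAIL, was lower (104 to 65.2 CPM, -0.67 ± 0.13, 0.0432). Mesenchymal genes, other cadherins and other splicing regulators had 0 calls, with 3 genes at an unadjusted p under 0.05 in each list. The most abundant members of these lists, by their mean over all 9 libraries and whatever their p, were Fn1 and Vim, Cdh11 and Cdh3, and Ptbp1 and Srsf1. Fn1 was at 1550 CPM in control and 1100 in IWP2, Vim at 1270 and 1160, Cdh11 at 156 and 149, Cdh3 at 20.6 and 12.3, Ptbp1 at 538 and 629 and Srsf1 at 472 and 559. Among the marker lists 1 feeder, 1 trophoblast and 1 extraembryonic endoderm gene were lower. Enah as a whole was higher (0.82 ± 0.14, edgeR adjusted p = 0.0265).

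In IWP2_removed Cdh1 also lay below control, again without passing the adjusted test. It was at 7.14 and 7.41 CPM in IWP2_removed, below both control libraries and between the IWP2 libraries. This comparison used the same control libraries as the others. The log2 fold change against control was -2.03 ± 0.56 (SE, unadjusted p = 0.00631, edgeR adjusted p = 0.16). Of the 10 genes 0 were called by edgeR, against 1.25% of all tested genes (0.669% higher and 0.586% lower). At an unadjusted p under 0.05 there was 1, Cdh1, against 11.9% of all tested genes, and DESeq2 called 1, Cdh1 (adjusted p = 0.00435). Cdh1 also passed in edgeR with all genes kept (adjusted p = 1.04e-07) and without either IWP2 library in the shared model (0.00251 and 0.00294). The libraries of 4 of 10 genes did not overlap with control, against 38.4% of all tested genes. These were Cdh1, Zeb1 (64.3 and 70.8 CPM), Zeb2 (57.0 and 57.0 CPM) and Twist1 (18.3 and 20.5 CPM), of which Zeb1 (-0.16 ± 0.17), Zeb2 (-0.18 ± 0.25) and Twist1 (0.33 ± 0.19) were small differences.

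The remaining members of IWP2_removed overlapped with control. Cdh2 was at 158 and 112 CPM (log2 fold change -0.14 ± 0.38), Snai1 at 8.77 and 6.28 and Snai2 at 8.29 and 4.71. Esrp1 was at 0.242 and 0.691 CPM and Esrp2 at 1.39 and 0.440, on 15 and 30 reads. In the 7 gene lists 2 calls were made against control, Ehf (0.347 to 1.88 CPM, 2.46 ± 0.46, edgeR adjusted p = 0.0474) and Ezh2 (104 to 198 CPM, 0.94 ± 0.15, edgeR adjusted p = 0.0312), both higher. The junction list had 0 calls by edgeR, 7 genes at an unadjusted p under 0.05 and a median of -0.06, and the genes with the highest mean over all 9 libraries were Krt18 (36.2 CPM in control and 22.5 in IWP2_removed) and Krt8 (27.2 and 15.7). Enah as a whole was higher here as well (0.87 ± 0.14, edgeR adjusted p = 0.0312). The calls of Ehf, Ezh2 and Enah used the spread shared with Dkk1_KO. Over all genes the 227 calls became 1 in the 6 libraries without Dkk1_KO and 10 with only the 2 groups compared. Whether these genes kept their calls there was not read. Mesenchymal genes, other cadherins, partners of the cadherin complex and splicing regulators had 0 calls by edgeR, with 1, 2, 1 and 2 genes at an unadjusted p under 0.05. The feeder marker sum was 4590 to 5500 CPM, 97.4% of control.

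Between IWP2_removed and IWP2 none of the 10 genes was called by edgeR, where 0.0608% of all tested genes were (0.0387% higher and 0.0221% lower). At an unadjusted p under 0.05 there were 0, against 9.69% of all tested genes, and DESeq2 called 0. The libraries of all 10 genes overlapped, whereas 27.0% of all tested genes did not overlap. The log2 fold changes of the members ran from -0.36 ± 0.56 for Cdh1 to 1.0 ± 0.53 for Esrp1. The outcome depended on single IWP2 libraries, since without IWP2 replicate 1 Zeb2 was higher in IWP2_removed (0.68, edgeR adjusted p = 0.0395) and without IWP2 replicate 2 Cdh1 was lower (-1.08, 0.0456). In the 7 gene lists 0 genes were called by edgeR, and at an unadjusted p under 0.05 there were 8 junction genes, 5 other cadherins and 1 to 3 genes in each of the other lists.

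**Figure D5:**
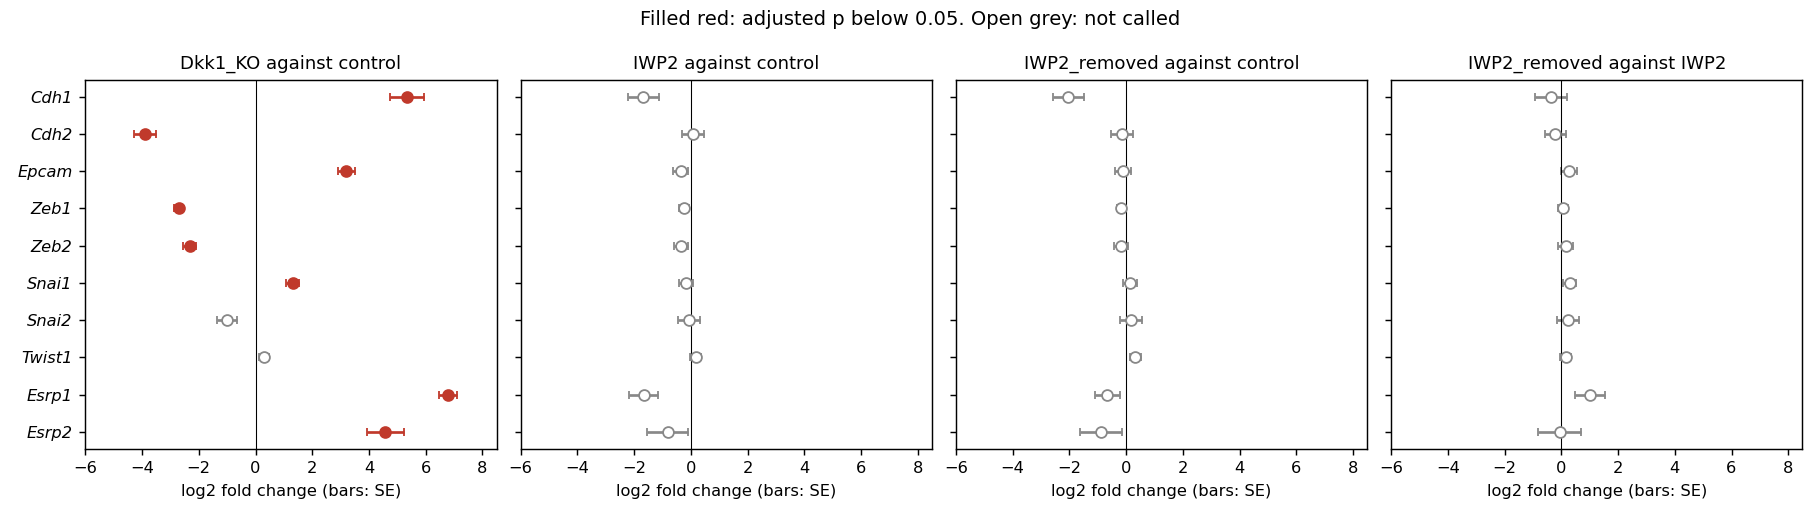
Log2 fold change of the 10 genes in 4 comparisons, with bars of 1 SE. Filled red points have an adjusted p below 0.05 and open grey points do not. Of the 40 points 8 are filled, and they are the Dkk1_KO against control values of Cdh1, Cdh2, Epcam, Zeb1, Zeb2, Snai1, Esrp1 and Esrp2.

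In the order of group means Cdh1 was highest in Dkk1_KO (1200 ± 14.8 CPM, SD, n = 3), then in control (29.7 ± 7.32, n = 2), IWP2 (9.32 ± 8.75, n = 2) and IWP2_removed (7.28 ± 0.193, n = 2), and the last 2 did not differ beyond their spread. Cdh2 was lowest in Dkk1_KO (10.0 ± 0.502 CPM), and IWP2 (156 ± 97.4), control (148 ± 35.4) and IWP2_removed (135 ± 33.2) did not differ beyond their spread. For Epcam, Zeb1, Zeb2, Snai1, Snai2 and Esrp2 Dkk1_KO was likewise at one end, and the libraries of IWP2 overlapped with those of control and of IWP2_removed. Esrp1 followed the order Dkk1_KO (81.4 ± 2.53 CPM), control (0.756 ± 0.190), IWP2_removed (0.467 ± 0.318) and IWP2 (0.229 ± 0.0873), where IWP2_removed overlapped with both control and IWP2. Twist1 ran from control (15.5 ± 0.313 CPM) over IWP2 (17.3 ± 3.41) and Dkk1_KO (19.1 ± 1.99) to IWP2_removed (19.4 ± 1.52), and each of these neighbours overlapped.

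Genes whose log2 level over libraries was most like that of Cdh1, Cdh2, Zeb1 or Snai2 were taken by Pearson r among genes of at least 5 CPM. Over all 9 libraries the r values rest on the distance between the 3 Dkk1_KO libraries and the other 6, and they are a description without a test. The most alike were Dsc2, a desmosomal cadherin, Abhd2, Vill and Tfcp2l1 for Cdh1 (r = 0.9975 to 0.9982), Baz2b, Dnmt3a, Prdm11 and Cask for Cdh2 (0.9966 to 0.9976), Tspan7, Smo, Frmd4b and Tspyl5 for Zeb1 (0.9969 to 0.9985), and Cpt1a, Cyyr1, Zfp276 and Med23 for Snai2 (0.9671 to 0.975). Within the 6 libraries of control, IWP2 and IWP2_removed other genes came first. They were Pcyox1, Epb41l3, Aff1 and Lifr for Cdh1 (r = 0.9868 to 0.9914), Nbea, Elmsan1, Sema3a and Limch1 for Cdh2 (0.9911 to 0.9953), Calcrl, Ints6l, Fzd1 and Itga6 for Zeb1 (0.988 to 0.9965), and Acvrl1, Gsn, Twist2 and Slc35f6 for Snai2 (0.9936 to 0.9997). Twist2 is on the feeder fibroblast list. Values as high as these are picked from very many genes over 6 libraries that share media and feeder cells. The r of Cdh1 was -0.921 to Zeb1 and -0.868 to Zeb2 over the 9 libraries, and 0.836 and 0.850 over the 6 libraries without Dkk1_KO.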

How the data were processed

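RNA of 9 libraries in 4 groups was sequenced after TruSeq stranded mRNA preparation, per the labels' protocols. The authors quantified transcripts with Salmon, and the submitters' processing notes also name DESeq2 and edgeR. Versions and the transcriptome build are not given in the sources used here, nor is it stated whether strand was used, so reads of antisense transcripts overlapping a gene cannot be told apart. The deposited tables give estimated counts and TPM per transcript.

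Transcripts were assigned to GENCODE vM21 genes (GRCm38). Of 133618 transcripts 133399 matched and the 219 others held at most 0.161% of reads. Sums per gene were rounded. Groups were compared with edgeR 4.0.16 (R 4.3.3), a quasi-likelihood model of 4 group means over all 9 libraries with TMM factors, filterByExpr (18096 genes) and Benjamini-Hochberg adjustment, called below 0.05. Isoform shares used annotated exons and start codons. The pipeline was tested on simulated data. Genes outside the 10 members were named by rule, up to 4 called genes per list with the smallest p or otherwise the 2 most abundant. The members and lists were chosen with earlier results of these data known.

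Alternatives were DESeq2 1.42.0, its size factors in edgeR, other filters, a length offset, only the groups compared, blocks by replicate number or by the letter in file names, limma-trend (limma 3.58.1) on log2(TPM + 1), and each library left out. Settings chosen once the data had been seen were the 6 libraries without Dkk1_KO, the Dkk1_KO libraries averaged, and TPM of transcripts of at least 500 bases. The protocol also lists SB431542, an agent with which no group used here is labelled. One mesenchymal gene counted in its list and the sequence of one exon are not reported here.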

Additional observations from a re-analysis of the deposited data

How the results depend on the processing

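Of 789 values of the 10 genes under 20 alternative settings, 769 kept their side of the threshold, 2 lost a call and 18 gained one. The sign changed in 33 of them, 11 where IWP2 and 6 where IWP2_removed was set against control, 16 between these inhibitor groups and 0 with Dkk1_KO, and 0 of these were called under either setting. Cdh2 in IWP2 against control ran from -0.78 to 0.60 and Cdh1 in IWP2_removed against IWP2 from -1.08 to 1.22 (log2 fold change), the ends being reached with an IWP2 library left out. The number of the 10 genes called, 8 for Dkk1_KO against control and 0 in the other comparisons, became 1 with no filter on low counts and 1 by DESeq2 where either inhibitor group was set against control, Cdh1 in each case. Leaving out each library in turn gave 8 to 9 genes for Dkk1_KO against control, 0 to 2 for IWP2 against control, 0 to 1 for IWP2_removed against control and 0 to 1 for IWP2_removed against IWP2. The share of calls among all genes, against which the members are read, moved far more. For Dkk1_KO against control 8018 calls became 2724 with the Dkk1_KO libraries averaged to 1, and 6143 to 9692 with a library left out. For IWP2 against control 396 calls became 1220 with no filter, 168 with a length offset, 1 with only the 2 groups compared, 1056 by DESeq2, 219 by limma-trend, 12 in the 6 libraries without Dkk1_KO and 10 with averaged Dkk1_KO libraries, and 70 to 2432 with a library left out. For IWP2_removed against control 227 calls became 732, 79, 10, 663, 104, 1 and 1 in the same order, and 14 to 738 with a library left out. For IWP2_removed against IWP2 11 calls became 414, 4, 0, 388, 5, 1 and 1, 18 with at least 1 CPM in 2 libraries, and 0 to 454 with a library left out. The high end was reached without IWP2 replicate 1 for IWP2 against control (716 without replicate 2), and without replicate 2 in the comparisons of IWP2_removed (730 and 395 without replicate 1). The cause was not tested.

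Same-numbered libraries deviated together in control, IWP2 and IWP2_removed (correlations 0.334 to 0.5) but not with Dkk1_KO (-0.056 to -0.018). In Dkk1_KO the letters in the file names do not follow the replicate numbers as they do in the other groups. The check by number therefore could not show whether Dkk1_KO libraries deviate with those of the same letter. The main model took no pairs, and blocks were run as alternatives. The replicate number as a block left 9 of the 10 genes called for Dkk1_KO against control, Snai2 being added (log2 fold change -1.17, edgeR adjusted p = 0.035), and 0 elsewhere. Over all genes this block gave 7340, 345, 135 and 2 calls in the 4 comparisons, and a block by the letter in the file names gave 7548, 403, 184 and 3, with 8 of the 10 genes called for Dkk1_KO against control and Snai2 not among them (-0.81, edgeR adjusted p = 0.11). Within letters B and C, Cdh1 differed from control by 5.08 and 5.62 in Dkk1_KO, -1.17 and -2.97 in IWP2 and -2.29 and -1.73 in IWP2_removed on the log2 scale.

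The difference in the cadherin ratio between Dkk1_KO and control was 9.22 from CPM in place of TPM. As shares of estimated reads the difference between Dkk1_KO and control was 53.5 points for Fgfr2 IIIb, against 61.87 from TPM. It was 1.33 points for the Cd44 forms with any coding exon beyond the shared ones, against 5.19 from TPM. With Spearman in place of Pearson the mean likeness of the 4 named genes was 0.95 for Cdh1, 0.967 for Cdh2, 0.975 for Zeb1 and 0.975 for Snai2 over 9 libraries, and 0.957, 0.986, 0.986 and 0.971 over 6. Depth limited Esrp1 and Esrp2 outside Dkk1_KO, where each group held 8 to 44 reads, and groups of 2 limited every comparison.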
